A study of Mus musculus with 6 samples.

Results

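The 38 genes described here run the lysosome and autophagy, the route by which a cell encloses its own material in a membrane and delivers it to the lysosome for breakdown. They were taken as a list of mouse symbols, 19 for the lysosome and 19 for autophagy, and matched by symbol to the gene identifiers of the count tables, which hold 49315 genes. All 38 were found. The measurements were RNA counts from CBir1 TCR Tg CD4+ T cells, T-cell receptor transgenic cells that recognise a flagellin of gut bacteria.

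Each of 6 libraries represented 1 condition. The transferred cells shared 1 history: 2000000 CD45.1 donor cells lacking CD44 went into C57BL/6 CD45.2 hosts on day 0, and the hosts received 50 ug of CBir1 flagellin with 1 ug of CT on days 1 and 7. MEP1+Metformin+Rapamycin, MEP1+Rapamycin, MEP1+Metformin and MEP1+CMC were given 3 ug of MEP1 on days 28 and 35, each time followed for 5 days by both inhibitors, rapamycin, metformin or the vehicle CMC. The No treatment hosts went without MEP1, inhibitor and vehicle in that period. Per the labels' protocol all hosts were challenged with 3 ug of MEP1 on day 56, with splenic donor cells sorted on day 63. The sixth library was the naive CD4 control, for which the labels give no transfer. The age and sex of the mice and whether a library pooled animals are not stated in the labels, and no depletion of the hosts' own cells is described.

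In background terms, lysosomes are acidified by a proton pump, the V-ATPase, and hold proteases (the cathepsins), glycosidases and lipid-handling proteins. Autophagy starts with the ULK1 kinase complex, continues with a lipid kinase complex built on Pik3c3 and Becn1, and then attaches ATG8-family proteins (the Map1lc3 and Gabarap genes) to the growing membrane through a conjugation system of Atg3, Atg5, Atg7, Atg12 and Atg16l1. The kinase mTORC1, which rapamycin inhibits, restrains ULK1 and keeps the transcription factors TFEB and TFE3 out of the nucleus. Metformin acts on mitochondrial respiration and can activate AMPK, an energy sensor that phosphorylates ULK1. T cells use autophagy to hold down organelle load and to survive as memory cells.

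Total counts per library ran from 26139000 (naive CD4 control) to 60622310 (No treatment). Levels are given as TMM CPM, counts scaled to the library total after an adjustment of that total by a trimmed-mean factor, and a difference between 2 libraries as a log2 ratio with a 95% interval for counting error alone. With 1 library per condition such a ratio has no replicate check and no p-value. A gene is called higher or lower when it differed by at least 2-fold and its interval excluded no change, over 12928 genes that had at least 2 CPM and 10 counts in at least 1 library, among them all 38 members. Members had between 110 and 85974 counts in a library.

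Several features of the libraries stand beside every result below. In the No treatment file the column header says no challenge, whereas the label and the protocol say otherwise. The label was followed here. Xist, transcribed from the inactive X chromosome, was at 0.22 to 0.53 TMM CPM in the 3 inhibitor libraries, against 257 in MEP1+CMC. Ddx3y on the Y chromosome was at 67.9 to 95.9 TMM CPM in the same 3 libraries, against 0.30 in MEP1+CMC, and No treatment held both genes (23.0 and 34.2). The naive CD4 control had 42.8 of Xist and 0.37 of Ddx3y. Inhibitor and sex-linked differences therefore cannot be told apart in a comparison with MEP1+CMC. Nor can condition and sex-linked differences be told apart in the pairs that hold No treatment. Among the members, 3 (Lamp2, Gla and Tfe3) lie on the X chromosome. All 10 CD4 T-cell markers had counts in every library, with a summed level of 7718 to 9844 TMM CPM. Macrophages are rich in lysosomes, and 21 macrophage and monocyte markers summed to 752 TMM CPM in MEP1+Metformin+Rapamycin, 672 in MEP1+Rapamycin, 695 in MEP1+Metformin, 952 in MEP1+CMC, 4313 in No treatment and 104 in the naive CD4 control. Every one of the 21 had counts in the 5 transferred libraries, and Fcgr1, Siglec1, Marco and Cd14 were at 0 in the naive CD4 control. In such bulk samples, fewer cells of a type and less RNA per cell cannot be told apart.

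Across the libraries, the lysosome genes were high in No treatment and low in MEP1+Rapamycin. Of 19 lysosome genes, 12 had their highest level in No treatment, where 16.7% of all measured genes had theirs. As many as 10 of 19 had their lowest level in MEP1+Rapamycin, against 16.1% of all measured genes. Centred on each gene's mean over the libraries, the median lysosome gene stood at -0.13 (log2) in MEP1+Metformin+Rapamycin, -0.27 in MEP1+Rapamycin, -0.08 in MEP1+Metformin, 0.06 in MEP1+CMC, 0.28 in No treatment and 0.08 in the naive CD4 control. Autophagy genes varied less. Their highest level exceeded their lowest by a median of 1.55-fold, against 1.97-fold for lysosome genes and 1.90-fold for all measured genes. Of the 19 autophagy genes, 8 were highest in MEP1+Metformin, where 13.6% of all measured genes were highest. All of the 8 but Pik3c3 have more than 5069 exon bases. Over MEP1+CMC, genes of that length as a whole had a median log2 ratio of 0.13 in this library, and short genes -0.18.

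**Figure D1:**
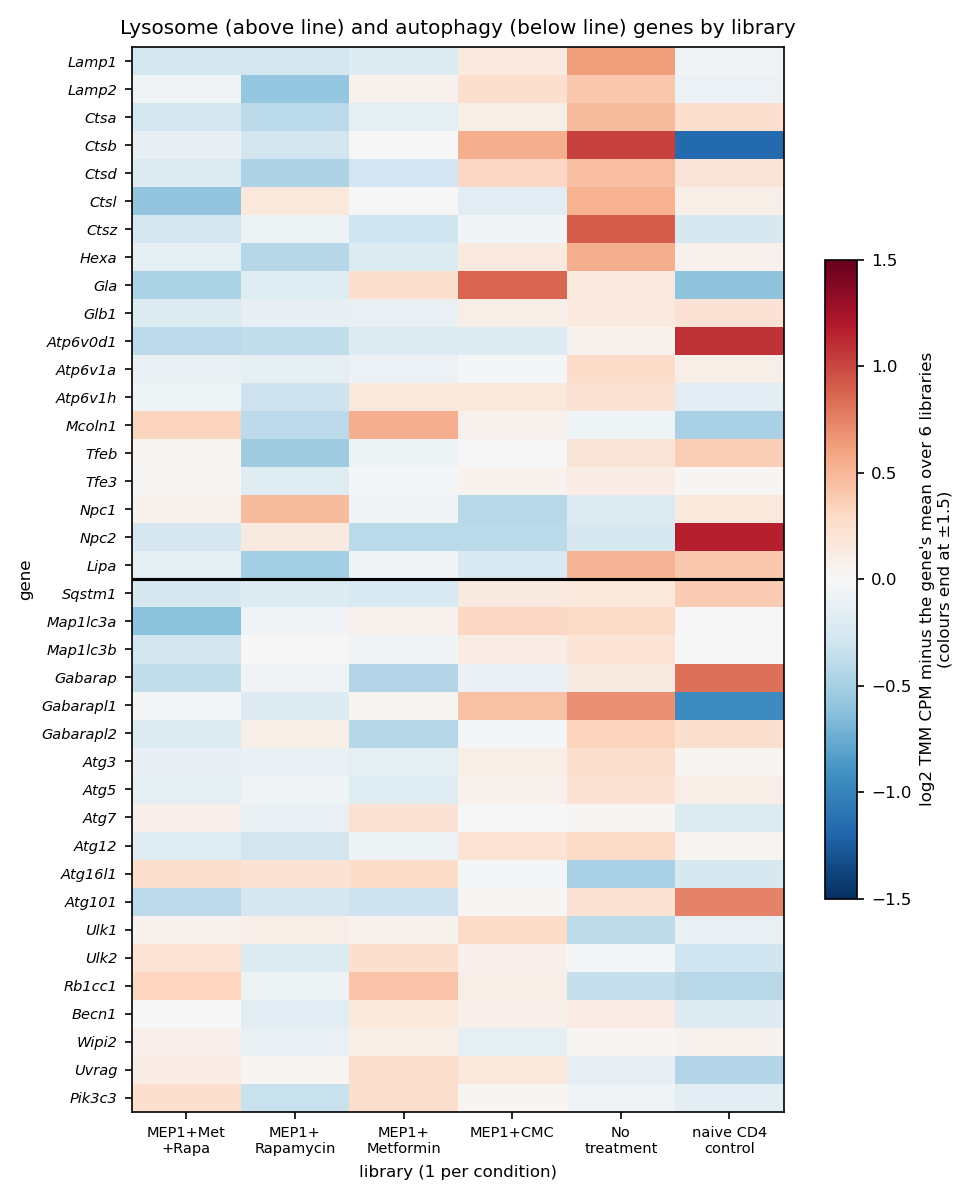
Level of the 38 genes in each of the 6 libraries, as log2 TMM CPM minus the gene's own mean over the libraries; columns are libraries, rows are genes, lysosome genes above the line and autophagy genes below it. Of the 19 lysosome genes 12 peak in No treatment and 10 are lowest in MEP1+Rapamycin, while Npc2 and Atp6v0d1 are high in the naive CD4 control alone.

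Per kilobase of exon, the most abundant lysosome gene was Ctsd, the aspartic protease cathepsin D (chromosome 7, 142375911 to 142388038, GRCm38, minus strand), with a mean of 222 TMM CPM per kb. It had 440 TMM CPM in MEP1+Metformin+Rapamycin, 368 in MEP1+Rapamycin, 417 in MEP1+Metformin, 627 in MEP1+CMC, 692 in No treatment and 582 in the naive CD4 control. The 3 inhibitor libraries were below the other 3. Its counts carry a caution, since 34.4% of its exon bases overlap Gm49369 on the same strand. Sqstm1, which encodes p62, the receptor that carries ubiquitin-tagged cargo into autophagosomes, led the autophagy genes with a mean of 184 TMM CPM per kb. Its level was 514 TMM CPM in MEP1+Metformin+Rapamycin, 530.2 in MEP1+Rapamycin, 519 in MEP1+Metformin, 671 in MEP1+CMC, 678 in No treatment and 796 in the naive CD4 control. Here too the inhibitor libraries were the lowest, and the naive control was the highest.

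The transcription factors and the initiating kinase varied by less than 2-fold. Tfe3 had 41.7 TMM CPM in MEP1+Metformin+Rapamycin, 36.5 in MEP1+Rapamycin, 40.8 in MEP1+Metformin, 42.9 in MEP1+CMC, 44.8 in No treatment and 41.8 in the naive CD4 control, a 1.23-fold range that was the smallest of the lysosome list. Tfeb had 35.8 TMM CPM in MEP1+Metformin+Rapamycin, 24.2 in MEP1+Rapamycin, 33.1 in MEP1+Metformin, 35.2 in MEP1+CMC, 39.8 in No treatment and 45.2 in the naive CD4 control. MEP1+Rapamycin was the lowest library for both. Ulk1, the kinase that starts autophagy, had 35.3 TMM CPM in MEP1+Metformin+Rapamycin, 36.3 in MEP1+Rapamycin, 35.3 in MEP1+Metformin, 41.6 in MEP1+CMC, 26.1 in No treatment and 31.5 in the naive CD4 control, so that it was highest in MEP1+CMC and lowest in No treatment. None of these 3 genes passed the 2-fold rule in any of the 7 pairs of libraries compared.

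Among the other lysosome genes, Lamp1, an abundant glycoprotein of the lysosome membrane, had 236 TMM CPM in MEP1+Metformin+Rapamycin, 235 in MEP1+Rapamycin, 246 in MEP1+Metformin, 313 in MEP1+CMC, 436 in No treatment and 271 in the naive CD4 control. Hexa, a subunit of the enzyme that degrades gangliosides, ranged from 75.8 TMM CPM in MEP1+Rapamycin to 149.8 in No treatment, which was the top library for both genes. Glb1, the lysosomal beta-galactosidase, had a 1.34-fold range and the pump subunit Atp6v1a one of 1.33-fold.

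Of the autophagy genes, Wipi2 had the smallest range of all 38 members, 1.17-fold. Becn1 had a 1.27-fold range, with 43.9% of its exon bases shared with Cntd1 on the other strand, and the conjugation enzyme genes Atg3, Atg5 and Atg7 had ranges of 1.33-fold, 1.32-fold and 1.34-fold. Atg16l1 varied more. It had 68.7 TMM CPM in MEP1+Metformin+Rapamycin, 66.8 in MEP1+Rapamycin, 69.3 in MEP1+Metformin, 56.2 in MEP1+CMC, 41.0 in No treatment and 48.4 in the naive CD4 control, so the inhibitor libraries were the highest. Atg101, a small subunit of the initiation complex, had its highest level in the naive CD4 control (135 TMM CPM) and 61.6 to 94.3 in the transferred libraries. The kinase gene Ulk2 ranged from 46.0 TMM CPM in the naive CD4 control to 67.1 in MEP1+Metformin.

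No treatment set against the naive CD4 control contrasts antigen-experienced transferred cells with naive cells. Among the members, 3 were higher (15.6% of all genes were) and 2 were lower (8.20% of all genes were). Ctsb, the cysteine protease cathepsin B (chromosome 14, 63122462 to 63145919), had the largest ratio, 2.19 (interval 2.15 to 2.23). It had 641 TMM CPM in MEP1+Metformin+Rapamycin, 578 in MEP1+Rapamycin, 696 in MEP1+Metformin, 1018 in MEP1+CMC, 1422 in No treatment and 312 in the naive CD4 control. All 5 transferred libraries were thus above the naive one, with No treatment the highest. Gabarapl1, an ATG8-family gene, was higher at a ratio of 1.63 (1.35 to 1.93), with low counts. Its level was 11.2 TMM CPM in MEP1+Metformin+Rapamycin, 9.95 in MEP1+Rapamycin, 11.7 in MEP1+Metformin, 15.4 in MEP1+CMC, 18.2 in No treatment and 5.88 in the naive CD4 control, again with every transferred library above the naive one. A share of 28.3% of its exon bases overlaps a gene on the other strand, and 16.2% of those of Ctsb do. Strand-specific counting is not stated in the sources.

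The third gene that was higher was Ctsz, the carboxypeptidase cathepsin Z (chromosome 2, 174427493 to 174439039), with a ratio of 1.14 (1.07 to 1.21). It had 103 TMM CPM in MEP1+Metformin+Rapamycin, 116 in MEP1+Rapamycin, 99.3 in MEP1+Metformin, 119 in MEP1+CMC, 229 in No treatment and 104 in the naive CD4 control. Only No treatment stood out, since the other 5 libraries lay between 99.3 and 119. In the same pair, all 20 measured macrophage markers were higher, with a median log2 ratio of 5.07, and so were the 4 measured erythroid markers (2.16). Fcgr1 (2.98 TMM CPM) and Siglec1 (2.8) passed the filter through No treatment alone, so their direction was partly set by the filter. The last of the 21 macrophage markers, Itgam, did not pass it. It went the other way, with 0.55 TMM CPM in No treatment and 1.0 in the naive CD4 control. The part of macrophage and erythroid RNA in the higher levels of Ctsb and Ctsz in No treatment was not tested.

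Npc2 and Atp6v0d1 went the other way. Npc2 encodes the soluble protein that hands cholesterol to NPC1 inside the lysosome (chromosome 12, 84754560 to 84773112). It had 189 TMM CPM in MEP1+Metformin+Rapamycin, 246 in MEP1+Rapamycin, 169 in MEP1+Metformin, 169 in MEP1+CMC, 189.9 in No treatment and 502 in the naive CD4 control. Atp6v0d1, a membrane-sector subunit of the proton pump, had 36.5 TMM CPM in MEP1+Metformin+Rapamycin, 37.3 in MEP1+Rapamycin, 42.1 in MEP1+Metformin, 42.1 in MEP1+CMC, 49.8 in No treatment and 102 in the naive CD4 control. For both genes the naive control lay above every transferred library, with log2 ratios of -1.40 (-1.44 to -1.36) and -1.03 (-1.11 to -0.95) for No treatment over it. Their levels were highest in the library where the macrophage markers were lowest, and the part of macrophage RNA was not tested. Markers of other cells moved in the same direction as these genes in this pair, with a median of -2.71 for B-cell markers (5 of 6 measured were lower) and -2.80 for CD8 T-cell markers (both were lower), and their part was not tested. With library totals in place of TMM factors, the ratios were -0.92 and -0.55, under 2-fold, and the naive library differed from the others in that 15.4% of its counts were of ribosomal RNA-like loci (1.00% to 3.13% elsewhere).

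An edgeR quasi-likelihood fit of the 5 transferred libraries against the naive one, adjusted over all genes by the Benjamini-Hochberg method, called 3 members, all of which fell. By that fit 5.87% of all genes fell and 4.51% rose. Atp6v0d1 fell by 1.29 on the log2 scale (SE 0.19, adjusted p = 0.0071) and Npc2 by 1.38 (SE 0.22, adjusted p = 0.0083 in the edgeR fit). Gabarap, which encodes an ATG8-family protein, fell by 0.97 (SE 0.23, adjusted p = 0.034 in the edgeR fit). Its level was 193 TMM CPM in MEP1+Metformin+Rapamycin, 241 in MEP1+Rapamycin, 185 in MEP1+Metformin, 234 in MEP1+CMC, 276 in No treatment and 443 in the naive CD4 control, so the naive library exceeded all the others. This call was lost with library totals (adjusted p = 0.15 by edgeR) and when MEP1+CMC (0.065), MEP1+Metformin (0.061) or MEP1+Metformin+Rapamycin (0.070) was left out. Ctsb was not called, at 1.48 (SE 0.52, adjusted p = 0.11 by edgeR), nor was Gabarapl1, at 1.19 (SE 0.47, adjusted p = 0.14 by edgeR). Both were called as higher by DESeq2's Wald test and with library totals, and Ctsb also without No treatment. The spread in this fit includes the treatment differences among the transferred libraries, and the lone naive library was assumed to vary as they did.

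Of the remaining autophagy genes, Atg101 was the lowest after Gabarap in No treatment over the naive control, at -0.52 (-0.59 to -0.45). In the fit of the transferred libraries it was at -0.87 (SE 0.24, adjusted p = 0.052 by edgeR), short of a call, and it was called as lower by DESeq2's Wald test, with DESeq2's size factors, with the older quasi-likelihood method, with a filter at a mean of 10 CPM and without No treatment. The 5 conjugation genes ranged from -0.24 (Atg16l1, which places the conjugation machinery on the membrane) to 0.25 (Atg12). The list median was 0.12 for autophagy and 0.25 for lysosome genes, against 0.03 for all measured genes. Scaling by library totals moved the median of all genes to 0.51, and the 2 lists to 0.59 and 0.73, since it shifts every gene of a pair by 1 amount.

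**Figure D2:**
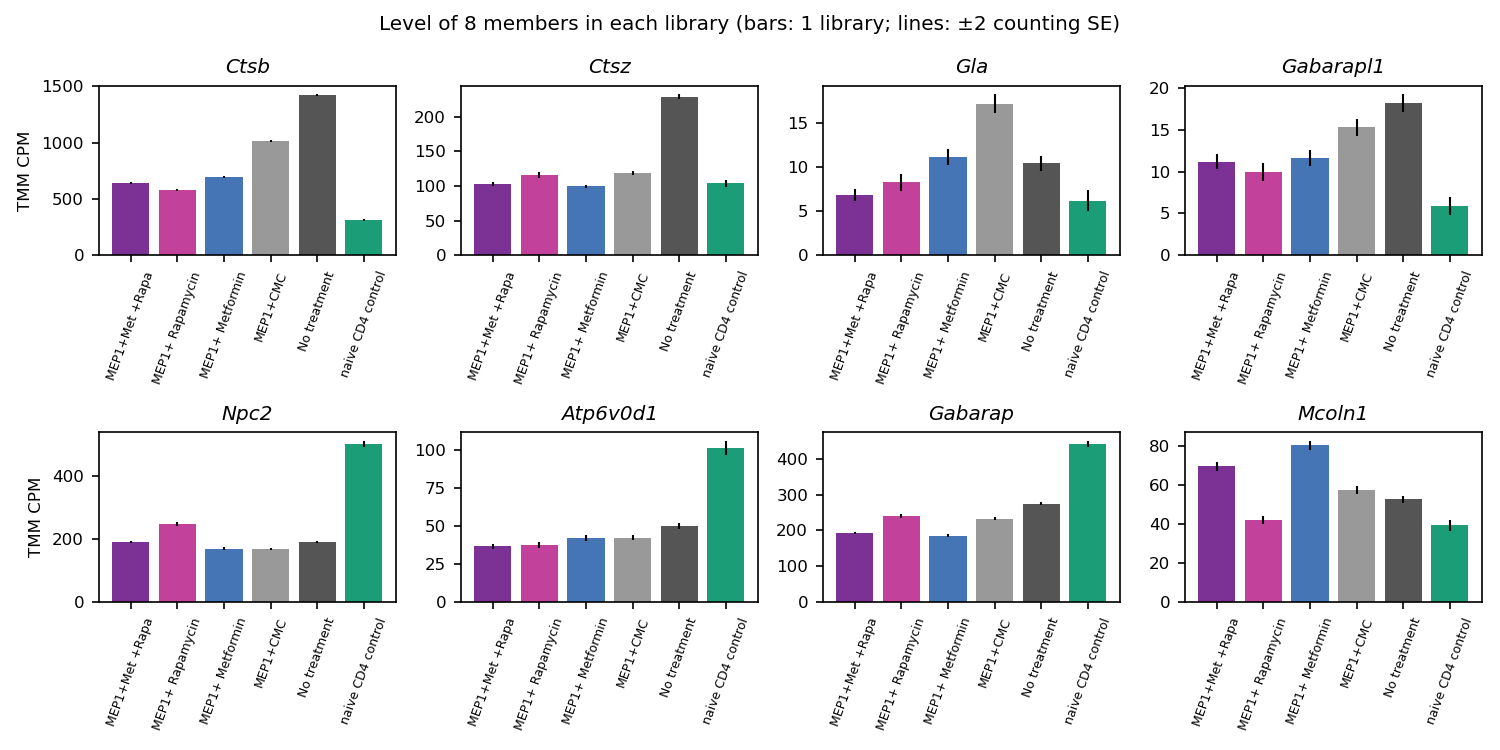
TMM CPM of 8 members in each library, one panel per gene; each bar is 1 library and the line on it is 2 counting standard errors either way, which hold no biological spread. Ctsb and Ctsz peak in No treatment (1422 and 229), Gla in MEP1+CMC (17.2), Mcoln1 in MEP1+Metformin (80.2), and Npc2, Atp6v0d1 and Gabarap in the naive CD4 control.

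MEP1+CMC and No treatment differed in MEP1 and in the vehicle together, so their comparison does not isolate the antigen. In MEP1+CMC over No treatment no member passed the 2-fold rule, while 8.69% of all genes were higher and 3.50% lower. Yet 17 of 19 lysosome genes lay below 0, where 49.4% of all genes did, and their median was -0.21 against 0.01 for all genes. The largest negative ratios were those of Ctsz (-0.95, interval -0.99 to -0.91), Lipa, the acid lipase that splits cholesteryl esters (-0.75), and Ctsl, cathepsin L (-0.69). Gla (0.72, interval 0.58 to 0.87) and Mcoln1 (0.12) were the lysosome genes above 0. For autophagy genes the median was -0.04 (0.02 with library totals, against 0.07 for all genes), and 12 of 19 lay below 0. Of the 4 initiation-complex genes 3 lay above 0, with Ulk1 at 0.68 (0.58 to 0.77) and its scaffold partner Rb1cc1 at 0.43. Those 3 are long genes, and Atg101, which lay below 0, is short. In this pair the median of all genes was 0.12 for long and -0.12 for short ones. All 20 measured macrophage markers were lower in the same pair, with a median of -2.20, as were the 4 measured erythroid markers (-2.17), and their part in the lysosome ratios was not tested. Among the 20, Fcgr1 and Siglec1 passed the filter through No treatment alone.

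When the 4 libraries given MEP1 on days 28 and 35 were set against No treatment, 1 member fell and none rose, where 1.06% of all genes fell and 0.404% rose. The gene was Ctsz, which fell by 1.08 on the log2 scale (SE 0.17, adjusted p = 0.025 in the edgeR fit). It was lost when MEP1+Metformin (adjusted p = 0.068 by edgeR) or MEP1+Metformin+Rapamycin (0.073) was left out. Without MEP1+CMC, Ctsb was called with it. At an unadjusted p below 0.05, 8 of 19 lysosome genes lay lower and none higher (774 of all 12872 genes lay lower and 1412 higher), Ctsz included, with Lipa (-0.73), Lamp1 (-0.76), Ctsb (-0.96) and Hexa (-0.69). Of the 20 macrophage markers, 15 fell in the same fit. The part of macrophage RNA in the fall of Ctsz was not tested. The spread in this fit includes the inhibitor differences among the 4 libraries. The lone No treatment library was assumed to vary as they did, so a deviation of that 1 library cannot be told apart from an effect of MEP1. Among the autophagy genes the lowest adjusted p was that of Atg16l1, at 0.66 (SE 0.19, adjusted p = 0.14 in the edgeR fit).

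**Figure D3:**
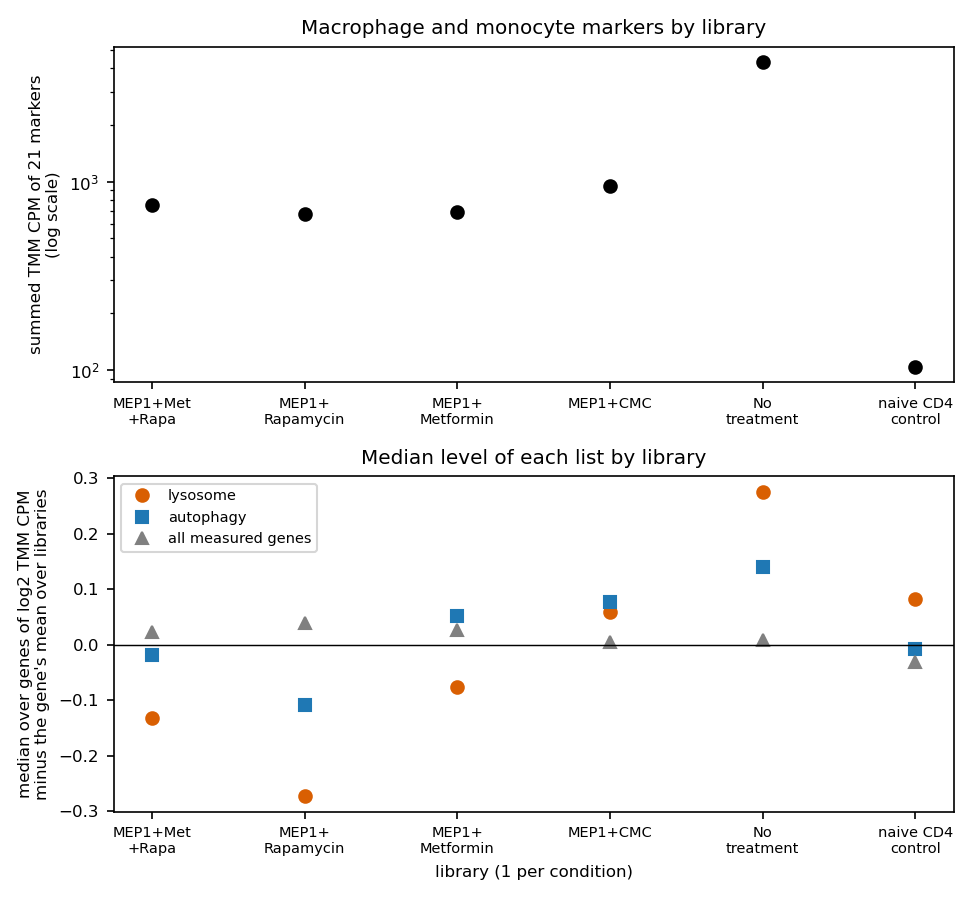
Upper panel: summed TMM CPM of 21 macrophage and monocyte markers in each library, on a log axis. Lower panel: median over the 19 lysosome genes, the 19 autophagy genes and all measured genes of log2 TMM CPM minus the gene's mean. Among the 5 transferred libraries both the marker sum and the lysosome median are highest in No treatment (4313 and 0.28) and lowest in MEP1+Rapamycin (672 and -0.27). The naive CD4 control has 104 and 0.08. The sum weighs abundant markers most: Lyz2 had 87.9 TMM CPM in MEP1+Rapamycin and 319 in MEP1+CMC. In that pair 13 of the 20 measured markers lay above 0.

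Most lysosome transcripts lay below their MEP1+CMC level in the rapamycin library. In MEP1+Rapamycin over MEP1+CMC, 16 of 19 lysosome genes and 15 of 19 autophagy genes lay below 0, where 47.2% of all genes did. The medians were -0.41 and -0.20, against 0.03 for all genes. With TMM factors from all genes, a setting chosen after the data were seen, they were -0.57 and -0.35, against -0.13 for all genes. Under the 2-fold rule 1 member was lower, Gla, and none was higher, while 4.49% of all genes were lower and 7.39% higher. Gla encodes alpha-galactosidase A, which removes galactose from glycolipids (chromosome X, 134588149 to 134601125). Its level was 6.80 TMM CPM in MEP1+Metformin+Rapamycin, 8.27 in MEP1+Rapamycin, 11.2 in MEP1+Metformin, 17.2 in MEP1+CMC, 10.4 in No treatment and 6.20 in the naive CD4 control. MEP1+CMC was the highest library and lay above No treatment as well, and the ratio for MEP1+Rapamycin over MEP1+CMC was -1.06 (-1.25 to -0.86). Just short of 2-fold were Lamp2, a lysosome membrane glycoprotein on which chaperone-mediated autophagy depends (-0.83, interval -0.93 to -0.72), Ctsb (-0.82, -0.84 to -0.79) and Ctsd (-0.77, -0.80 to -0.74).

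By role, the proteases other than Ctsl (0.33) and Ctsz (-0.03) lay between -0.50 (Ctsa, a carboxypeptidase that also protects other hydrolases) and -0.82. All 3 glycosidases, all 3 proton pump subunits, both membrane glycoproteins and both transcription factors were below 0, with Tfeb at -0.54 (-0.66 to -0.42). The cholesterol-handling genes Npc1 and Npc2 went the other way. Npc1, the membrane protein that passes cholesterol out of the lysosome, was at 0.89 (0.75 to 1.03), and Npc2 at 0.55 (0.50 to 0.59). Macrophage markers had a median of 0.18 in this pair, with a range of -1.86 to 1.51 (13 of 20 measured lay above 0). Their summed level was 672 TMM CPM in MEP1+Rapamycin and 952 in MEP1+CMC, and Lyz2, which encodes a lysozyme of these cells, had 87.9 TMM CPM in MEP1+Rapamycin and 319 in MEP1+CMC. CD4 T-cell markers had a median of -0.23 (6 of 10 below 0) and the 4 measured erythroid markers one of -1.82. The part of these cells in the members' ratios was not tested.

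No member passed the 2-fold rule in MEP1+Metformin over MEP1+CMC, in which 3.12% of all genes were higher and 2.75% lower. All 5 ATG8-family genes lay below 0, where 51.0% of all genes did, from -0.41 for Gabarapl2 (-0.46 to -0.36) to -0.15 for Map1lc3b, the source of the autophagosome marker LC3B. The lipid kinase group lay above 0 throughout, with Becn1 at 0.08, Uvrag, a partner of Becn1, at 0.11, Wipi2, which reads the lipid that Pik3c3 makes, at 0.23 and Pik3c3 at 0.24. Conjugation genes went both ways (2 above 0 and 3 below), and so did the initiation genes (2 and 2). Most ATG8-family genes are short and most of the lipid kinase group are long, and in this pair the median of all genes was -0.18 for short and 0.13 for long ones. In the lysosome list the highest was Mcoln1, the calcium channel TRPML1 of the lysosome membrane (chromosome 8, 3500457 to 3515232), at 0.49 (0.42 to 0.55). It had 69.4 TMM CPM in MEP1+Metformin+Rapamycin, 42.0 in MEP1+Rapamycin, 80.2 in MEP1+Metformin, 57.3 in MEP1+CMC, 52.5 in No treatment and 39.2 in the naive CD4 control. Both metformin libraries were therefore the highest. Gla (-0.62), Ctsd (-0.59) and Ctsb (-0.55) were at the low end. The medians were -0.23 for autophagy and -0.09 for lysosome genes, against -0.01 for all genes. Library totals, which shift every gene of a pair by 1 amount, gave -0.11 and 0.04, against 0.11 for all genes. CD4 T-cell markers had a median of -0.30 (8 of 10 below 0), B-cell markers -0.92 (6 of 6 below 0), erythroid markers -2.77 (4 of 4 lower) and macrophage markers 0.02. Their part in the members' ratios was not tested.

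The combination of both inhibitors, set against MEP1+CMC, gave Gla as the 1 member that was lower and none that was higher, where 3.64% of all genes were lower and 3.22% higher. Gla had its most negative ratio in this pair, at -1.34 (-1.51 to -1.17). Next came Map1lc3a, an LC3 gene with few counts, at -0.93 (-1.07 to -0.78). Its level was 10.1 TMM CPM in MEP1+Metformin+Rapamycin, 15.0 in MEP1+Rapamycin, 16.2 in MEP1+Metformin, 19.2 in MEP1+CMC, 18.9 in No treatment and 15.4 in the naive CD4 control, so the combination was the lowest library. All 5 ATG8-family genes and all 5 proteases lay below 0, the proteases from -0.67 (Ctsb) to -0.21 (Ctsz). Npc1 (0.47) and Atg16l1 (0.29) were the highest members. The medians were -0.21 for autophagy and -0.23 for lysosome genes, against 0.00 for all genes. CD4 T-cell markers had a median of -0.29 (9 of 10 below 0), B-cell markers 1.22 (5 of 6 higher), macrophage markers 0.24 and erythroid markers -2.69, and their part was not tested. The 3 inhibitor comparisons share the MEP1+CMC library, so whatever set that library apart enters all 3.

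**Figure D4:**
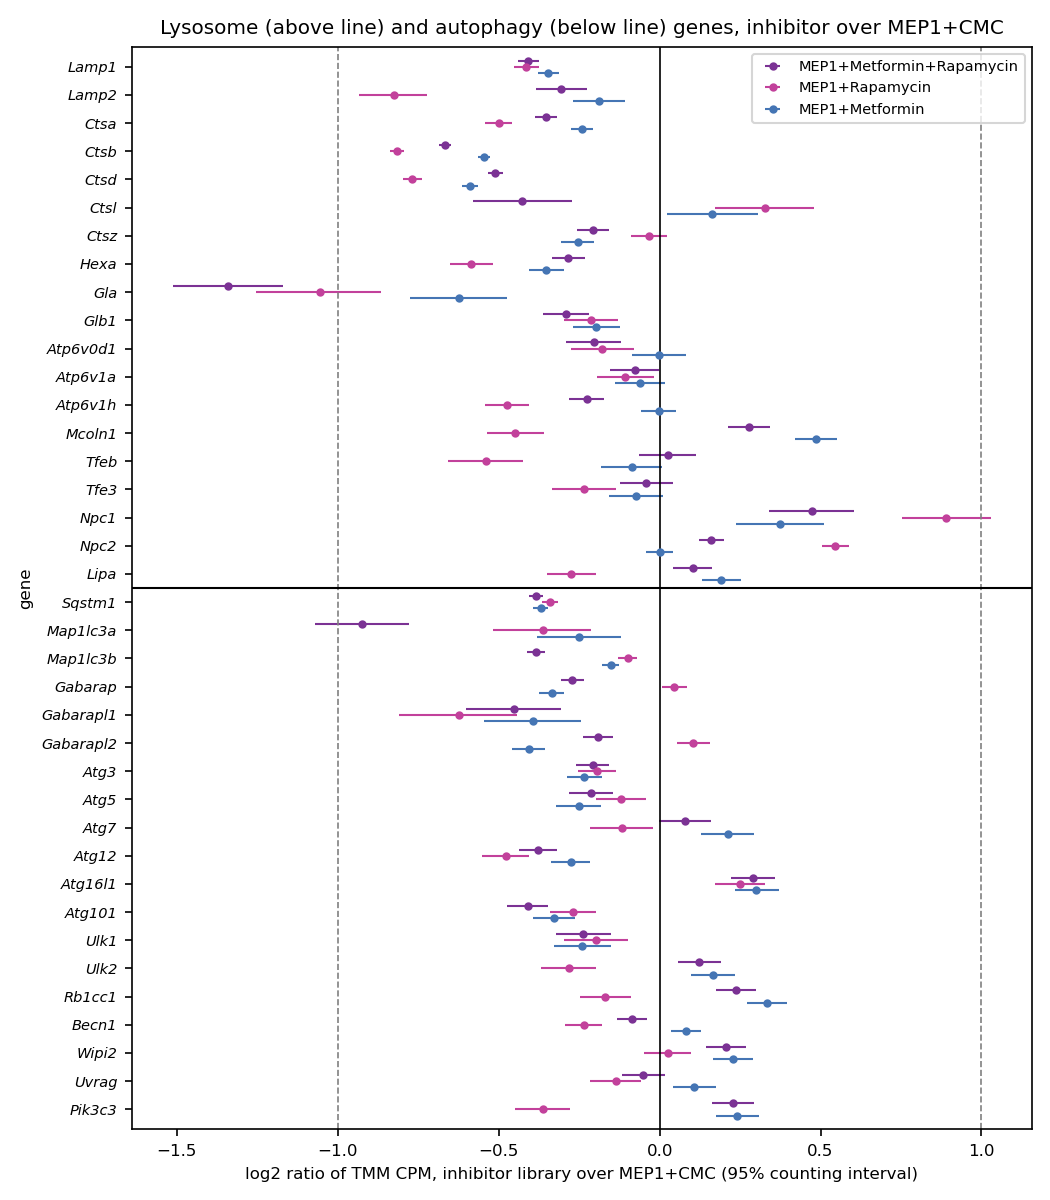
Log2 ratio of TMM CPM of each inhibitor library over MEP1+CMC for the 38 genes, with 95% counting intervals; dashed lines mark 2-fold, and lysosome genes are above the solid line. Gla alone lies past 2-fold, in MEP1+Metformin+Rapamycin (-1.34) and MEP1+Rapamycin (-1.06), and Npc1 lies above 0 in all 3 comparisons.

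The 2 pairs that set one inhibitor library against another compare libraries that were alike in Xist and Ddx3y. In MEP1+Metformin+Rapamycin over MEP1+Metformin no member passed the rule, where 1.21% of all genes were higher and 1.87% lower. Gla (-0.72, interval -0.91 to -0.53), Map1lc3a (-0.67, -0.83 to -0.52) and Ctsl (-0.59, -0.75 to -0.43) were the most negative, and the medians were -0.09 for lysosome and -0.04 for autophagy genes, against 0.01 for all genes. In MEP1+Metformin+Rapamycin over MEP1+Rapamycin, again with no member past the rule (2.38% of all genes were higher and 4.58% lower), Mcoln1 was the highest at 0.73 (0.64 to 0.81), followed by Pik3c3 (0.59) and Tfeb (0.57). Lysosome genes had a median of 0.15 and autophagy genes one of 0.04, against -0.03 for all genes. Ctsl (-0.75, -0.92 to -0.58) was the lowest. Exon length moved with the ratios over MEP1+Rapamycin. The median of all genes was -0.27 for short genes, 0.055 for those of middle length and 0.095 for long ones. Lysosome genes had -0.03, 0.01 and 0.25 in the same order. Mcoln1 and Tfeb are long, and Ctsl is short. With the length trend removed, an alternative chosen after seeing the data, the lysosome median was 0.135, against 0.046 for all genes. B-cell markers were higher in the combination in both of these pairs, with medians of 2.31 and 1.49, and their part in the members' ratios was not tested.

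An additive edgeR model of the 4 MEP1 libraries, with 1 residual degree of freedom, called no member for either inhibitor. By that model 0.0236% of all genes rose and 0.0550% fell with metformin, and 0.0314% rose and 0.0472% fell with rapamycin. DESeq2's Wald test of the same design also called no member for either term. At an unadjusted p below 0.05, 3 members lay higher and 1 lower with metformin, where 4.80% of all genes lay higher and 5.56% lower, namely Mcoln1 (0.62, SE 0.16), Pik3c3 (0.43), Rb1cc1 (0.39) and Gabarapl2 (-0.33). With rapamycin none lay higher and 5 lower, where 3.12% of all genes lay higher and 3.72% lower, namely Gla (-0.90, SE 0.26), Map1lc3a (-0.53), Ctsb (-0.48), Lamp2 (-0.48) and Atp6v1h, a regulatory subunit of the proton pump (-0.36). The lowest adjusted p by edgeR was 0.42 for metformin and 0.54 for rapamycin. Under rapamycin 33 of 38 members had a negative coefficient, among genes of which 6263 of 12725 did. The 1 residual degree of freedom is the departure from additivity, so the spread in this model is that departure. MEP1+CMC enters both terms, and it differed from the inhibitor libraries in Xist and Ddx3y. Inhibitor and sex-linked differences therefore cannot be told apart in this model.

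Promoter sequence is shown for 4 lysosome genes, because TFEB and TFE3 bind an E-box in the promoters of many lysosome genes. Gla, Atp6v0d1 and Npc2 passed the 2-fold rule in a pair. Mcoln1 did not and was called in no fit, and it was picked after its values were seen. Windows from RefSeq on GRCm38.p6 reach from 250 bases before to 50 after the annotated start, and 29 of the 38 members have at least 1 window. The motif TCACGTGA, which reads the same on both strands and contains the shorter E-box CACGTG, is in 0.974% of all 32851 windows. Of the 16 lysosome genes with a window 6 hold it (Atp6v0d1, Atp6v1a, Ctsa, Ctsd, Gla and Mcoln1), as does 1 of 13 autophagy genes (Atg3). By gene it is found in 1.12% of the 27025 genes of the table. The shorter CACGTG is in 9 of the 16 and 3 of the 13, against 8.09% of all genes. The windows below run 5′ to 3′ on the gene's strand, from 250 bases before the start to 25 after it, with TCACGTGA in capitals:
Gla, chrX:134600981-134601255, minus strand: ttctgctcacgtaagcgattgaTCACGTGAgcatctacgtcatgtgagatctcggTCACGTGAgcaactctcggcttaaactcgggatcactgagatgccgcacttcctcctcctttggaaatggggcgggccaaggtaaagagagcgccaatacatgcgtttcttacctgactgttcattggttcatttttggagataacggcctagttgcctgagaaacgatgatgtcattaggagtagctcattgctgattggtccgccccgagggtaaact
Mcoln1, chr8:3500269-3500543, plus strand: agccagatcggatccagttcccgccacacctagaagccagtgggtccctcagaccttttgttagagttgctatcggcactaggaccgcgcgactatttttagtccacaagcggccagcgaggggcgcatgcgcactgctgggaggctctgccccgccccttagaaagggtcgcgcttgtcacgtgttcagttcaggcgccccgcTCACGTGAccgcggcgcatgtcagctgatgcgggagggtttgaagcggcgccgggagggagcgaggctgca
Atp6v0d1, chr8:105566040-105566314, minus strand: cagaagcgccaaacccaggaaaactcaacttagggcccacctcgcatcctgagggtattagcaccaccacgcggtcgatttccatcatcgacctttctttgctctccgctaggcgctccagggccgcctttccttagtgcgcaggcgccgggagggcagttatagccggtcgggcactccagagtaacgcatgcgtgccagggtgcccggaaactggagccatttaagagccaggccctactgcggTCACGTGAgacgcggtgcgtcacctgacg
Npc2, chr12:84773088-84773362, minus strand: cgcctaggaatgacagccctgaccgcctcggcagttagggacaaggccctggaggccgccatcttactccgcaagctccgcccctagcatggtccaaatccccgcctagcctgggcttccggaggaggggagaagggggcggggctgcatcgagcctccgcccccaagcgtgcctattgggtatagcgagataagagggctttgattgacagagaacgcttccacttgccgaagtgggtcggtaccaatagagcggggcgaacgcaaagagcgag

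In Gla the motif occurs at 2 places, beginning 228 and 195 bases before the start. It begins 46 bases before the start in Mcoln1 and 4 bases before it in Atp6v0d1. The Npc2 window holds neither motif. Nor do the windows of Ctsz, Gabarap and Gabarapl1, which passed the rule or were called in a fit but are not shown. In MEP1+Rapamycin over MEP1+CMC all 7 members with TCACGTGA lay below 0, from -1.06 (Gla) to -0.11 (Atp6v1a), as did 17 of the 22 members whose windows lack it. In MEP1+Metformin over MEP1+CMC 6 of the 7 and 15 of the 22 lay below 0, with Mcoln1 at 0.49 the exception among the 7. Npc2, at 0.00 after rounding, was counted on neither side. In MEP1+Metformin+Rapamycin over MEP1+CMC the counts were 6 of the 7 and 16 of the 22. In No treatment over the naive control 6 of the 7 lay above 0, all but Atp6v0d1, as did 14 of the 22. The difference between members with and without the motif was not tested. These matches describe the letters in the windows and are not evidence of binding.

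Exon length moved with several of the ratios. In MEP1+Metformin over MEP1+CMC, the median of all genes was -0.18 for the shortest genes (up to 2649 exon bases), -0.01 for those of middle length (up to 5069) and 0.13 for the longest. Autophagy genes followed the same order, with medians of -0.33 (7 genes, all of them below 0), -0.23 (3 genes) and 0.17 (9 genes, 7 above 0). Of the ATG8-family genes, all but Map1lc3b are short by this measure, and of the lipid kinase group all but Pik3c3 are long. Removing the length trend, an alternative chosen after seeing the data, brought the autophagy median to -0.12 and the lysosome median to -0.17, against -0.01 for all genes. It moved the lysosome median of MEP1+CMC over No treatment to -0.34, against -0.02 for all genes. In MEP1+Rapamycin over MEP1+CMC the short genes of the whole table had a median of 0.16 and the long ones 0.02, whereas lysosome genes were at -0.18, -0.41 and -0.45 from short to long. The lysosome ratios with rapamycin were thus below those of all genes in each length class. With the length trend removed, the lysosome median was -0.42.

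**Figure D5:**
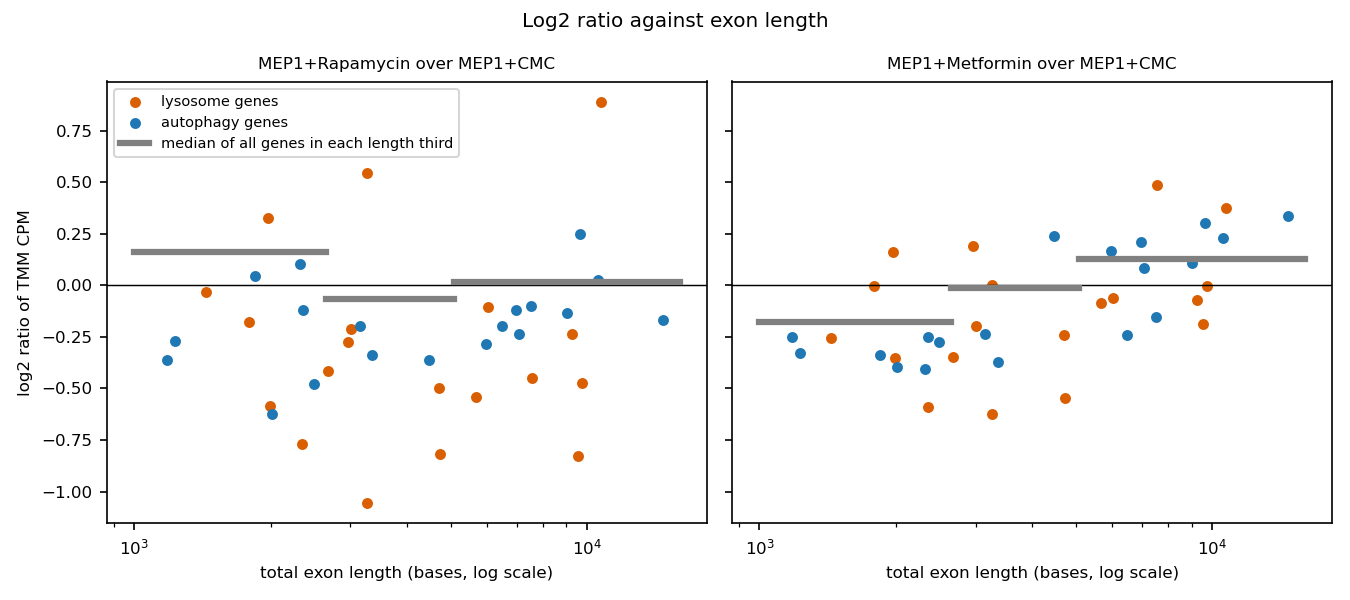
Log2 ratio against total exon length on a log axis for the 38 genes, in MEP1+Rapamycin over MEP1+CMC (left) and MEP1+Metformin over MEP1+CMC (right); grey bars are the medians of all measured genes in 3 length classes, drawn to the edge of the plotted range. With metformin the members climb with length as the grey bars do (-0.18 to 0.13), and with rapamycin most lysosome genes lie below the bars at every length.

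Another 144 genes of the same pathways, in 6 lists, put the members in context, and 138 of them were measured. In No treatment over the naive control 18 of the 138 (13.0%, against 15.6% of all genes) were higher and 2 (1.45%, against 8.20%) lower. The highest was the tetraspanin Cd63 at 5.35 (4.67 to 6.13), with 37.0 TMM CPM in No treatment and 0.91 in the naive CD4 control. The 2 that were lower were the endolysosomal cation channel gene Tpcn1 (-1.52) and Tex264, a receptor for autophagy of the endoplasmic reticulum (-1.04). In MEP1+CMC over No treatment 2 (1.45%, against 8.69% of all genes) were higher and 7 (5.07%, against 3.50%) lower. Higher were Ctsw, a cathepsin of cytotoxic lymphocytes (1.56), and Arsb, an arylsulfatase (1.07), and the lowest were Wdfy3, a scaffold for clearing protein aggregates (-3.35), Cd63 (-2.32) and Ctsh, cathepsin H (-2.12).

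Against MEP1+CMC, Wdfy3 and Tpcn1 were higher in every inhibitor library. Wdfy3 had 3.41 TMM CPM in MEP1+Metformin+Rapamycin, 5.97 in MEP1+Rapamycin and 1.31 in MEP1+Metformin, against 0.65 in MEP1+CMC. Its level in No treatment, 6.63, was above all of these, and the naive CD4 control had 0.48. Counts were low, with 39 in MEP1+CMC and 66 in MEP1+Metformin (ratio 1.005, interval 0.413 to 1.615). Tpcn1 had 12.3, 14.2 and 10.4 TMM CPM in the 3 inhibitor libraries in the same order, against 5.16 in MEP1+CMC. It had 5.03 in No treatment and 14.4 in the naive CD4 control. Atp6v0d2, a proton pump subunit known from osteoclasts and macrophages, was at 0.39 TMM CPM in MEP1+Metformin+Rapamycin, 0.12 in MEP1+Rapamycin (4 counts) and 0.40 in MEP1+Metformin, against 2.23 in MEP1+CMC. With rapamycin 2 of the 138 genes (1.45%, against 7.39% of all genes) were higher and 7 (5.07%, against 4.49%) lower, and Optn, the mitophagy receptor optineurin, was lower at -2.13. With metformin 2 were higher and 1 lower (1.45% and 0.725%, against 3.12% and 2.75% of all genes). With both inhibitors 2 were higher and 4 lower (1.45% and 2.90%, against 3.22% and 3.64%). All 15 of the other measured proton pump genes lay below 0 with metformin (median -0.27), where 51.0% of all genes did. Yet the 3 pump subunits among the members were at -0.06 (Atp6v1a), 0.00 (Atp6v1h) and 0.00 (Atp6v0d1). Of all short genes, 1351 of 4310 lay above 0 in MEP1+Metformin over MEP1+CMC, with a median of -0.18. The part of exon length in the ratios of the pump genes was not tested. In MEP1+Metformin+Rapamycin over MEP1+Metformin 1 of the 138 was higher, Wdfy3 (1.38; 0.725%, against 1.21% of all genes). In MEP1+Metformin+Rapamycin over MEP1+Rapamycin 4 were higher, among them Arsb (1.09; 2.90%, against 2.38%). None was lower in either pair, where 1.87% and 4.58% of all genes were.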

How the data were processed

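RNA was sequenced from 6 libraries of CBir1 TCR Tg CD4+ T cells, 1 per condition, grouped by the submitters' treatment labels. The deposited files hold raw counts per gene over exons, not normalized by the authors, and the submitters' processing notes name GRCm38, STAR 2.5.2b, Trimmomatic 0.36 and, for counting, featureCounts from Subread 1.5.2. The strand setting and the treatment of multiply mapping reads are not stated, so overlapping genes cannot be told apart.

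Counts were scaled with TMM factors (0.716 for the naive CD4 control, 0.997 to 1.13 for the others) from genes with at least 2 CPM and 10 counts in 1 library, in edgeR 4.0.16 under R 4.3.3. Pairs of libraries were compared as log2 ratios with exact 95% Clopper-Pearson intervals in Python 3.11.15 with scipy 1.17.1, a count of 0 being set to 3 counts. These intervals leave out biological spread and PCR duplication, as the labels mention no molecular identifiers. There were 4 tests across genes, glmQLFit and glmQLFTest with robust estimation, called at an adjusted p below 0.05, with 4, 3, 1 and 1 residual degrees of freedom. Nothing in the labels says that libraries came from separate cohorts, so a p-value reflects spread among these libraries, which may be technical. DESeq2 1.42.0, other scalings and filters, a 1.5-fold rule and leaving out libraries were alternatives. Both procedures were also run on simulated counts. These held counting noise alone for the pairs and 1 spread shared by all genes for the fits. The runs therefore do not measure the error in these unreplicated libraries.

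The members and lists were chosen with earlier results of these data known. Values in every library are given for members past the 2-fold rule or called in a fit, for Tfeb, Tfe3, Ulk1 and Sqstm1, and for the member of each list highest per kilobase. Mcoln1, Map1lc3a, Lamp1 and Atg16l1 were added after their values were seen. Of the other pathway genes, the 3 with the largest ratio past the rule in each direction were eligible to be named.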

Additional observations from a re-analysis of the deposited data

How the results depend on the processing

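With a 1.5-fold rule the members past it numbered 8 of 38 in No treatment over the naive CD4 control (40.0% of all genes passed), 5 in MEP1+CMC over No treatment (22.0%), 2 in MEP1+Metformin over MEP1+CMC (15.1%), 6 in MEP1+Rapamycin over MEP1+CMC (25.9%), 3 in MEP1+Metformin+Rapamycin over MEP1+CMC (16.3%), 3 over MEP1+Metformin (8.61%) and 3 over MEP1+Rapamycin (21.6%). For the transferred libraries against the naive one, DESeq2's Wald test called 6 members, against 3. Of these, 4 fell and 2 rose (Ctsb and Gabarapl1), among 2157 genes that rose and 1614 that fell. Library totals called 8, of which 2 fell and 6 rose, Ctsb and Gabarapl1 included, among 2427 genes that rose and 182 that fell. Against these, 583 rose and 759 fell with TMM factors. Leaving out 1 library gave 2 to 5. For the MEP1 libraries against No treatment, DESeq2's Wald test called 5 members, against 1, with 4 that fell and Atg16l1, which rose, among 879 genes that rose and 274 that fell, and leaving out 1 library gave 0 to 2. The cause was not tested. No alternative reversed the direction of a member past the 2-fold rule or called in a fit. Among the members followed singly through the settings, Gla passed the rule in No treatment over the naive control with library totals (1.23). Library totals raised every ratio of this pair, and Lamp1 (0.69 with TMM factors) was not among the members followed. Atp6v0d1 in No treatment over the naive control fell under 2-fold with library totals (-0.55), with TMM factors from all genes (-0.97) and with the length trend removed (-0.94), the last pair of settings chosen after the data were seen. No paired analysis was possible because each condition has 1 library and no replicate numbers are shared. Low counts limit Gabarapl1 and Gla, which had 110 and 116 counts in the naive library.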
